A study of Rattus norvegicus with 12 samples.

Results

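Rat genes that carry a Zfp symbol followed by a number, the rodent naming for zinc finger proteins, were followed across the 3 treatment groups of the study. A gene was included when its symbol had this form, it lay on one of chromosomes 1 to 20, and its mean over the 12 libraries was at least 1 FPKM (fragments per kilobase of gene, scaled to library depth). This rule kept 188 of 247 autosomal Zfp genes, out of 22431 genes in the deposited table. The table annotated 187 of the 188 as protein coding and the other one, Zfp207, as a pseudogene. Of the autosomal Zfp genes left out, 35 had a mean between 0.5 and 1 FPKM and were tested with all other genes, 24 were below the limit for testing, and 5 further Zfp genes lay on the X chromosome. All 188 members passed the filter for testing, which was a mean of at least 0.5 FPKM and left 14170 genes.

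The samples were RNA from the prefrontal cortex of 12 wild-type rat offspring in early adolescence, 1 library per animal and 4 animals per group. The saline group was the control, the PNO group had postnatal oxycodone exposure, and the IUO group had in utero exposure. Oxycodone, an opioid pain drug, was given by oral gavage at 15 mg/kg, with dosing that ended at postnatal day 21 at the latest, and the labels do not say which dosing window belonged to which group. The question was how exposure before birth compares with exposure after it. In each group 2 dams contributed 2 animals apiece, and the labels tie no animal to its dam, so that littermates count as independent and p-values may come out too small. The sources used here give neither strain nor sex.

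Zinc finger proteins of the C2H2 kind bind DNA through tandem fingers, each held in shape by a zinc ion and each reading a few bases, so that the order of fingers sets which sequence is recognised. The largest class in mammals also carries a KRAB domain, which recruits the corepressor TRIM28, the histone methyltransferase SETDB1 and heterochromatin proteins, and many of these genes silence transposable elements. Their genes lie in tandem clusters that grew by duplication, and near copies share sequence, so that reads counted for one member of a cluster could belong in part to a neighbour. Some Zfp-named genes have other jobs, such as in messenger RNA stability or in ribosome quality control.

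Library totals ranged from 49227533 to 60672246 counts. The median member had 848 counts per library, so that sampling of reads added little to the differences between animals except in the lowest members. All 11 cortical markers looked at, among them Tbr1 and Slc17a7, were measured, and their summed level was 2160 to 2820 CPM (counts scaled to library total) in saline, 2050 to 2570 in PNO and 1720 to 2500 in IUO. Markers of neighbouring regions varied between libraries. The summed level of 14 striatal markers was 321 to 712 CPM in saline, 327 to 2030 in PNO and 359 to 1580 in IUO, with raised scores in saline 2, PNO 2, IUO 1 and IUO 2. The summed level of 8 olfactory bulb markers was 30.6 to 41.8 CPM in saline, 35.6 to 206 in PNO and 24.8 to 250 in IUO, with raised scores in PNO 1, PNO 3, PNO 4 and IUO 3. No marker of either list was at 0 in all libraries. Because the raised bulb scores stood in 3 of 4 PNO libraries and in no saline library, the counts and medians over members, and the lists and named genes whose values moved most, are also given with both scores in the model or without those libraries. In bulk tissue, fewer cells of a type and less RNA per cell cannot be told apart.

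The promoters of 5 members are shown because these genes stand at the head of the comparisons described after them. Sequences are from RefSeq on the rat build GRCr8 and run from 250 bases before to 50 bases after the annotated start, 5′ to 3′ on the gene's strand. Of the 188 members, 147 matched an entry by symbol, with 190 distinct starts. Capitals mark exact matches to one of the motifs named after the sequences. Zfp141 (chr1:102266944-102267243, plus strand), Zfp646 (chr1:191915851-191916150, plus strand) and Zfp467 (chr4:78723086-78723385, minus strand) had the smallest p-values in PNO against saline. Zfp692 (chr10:42988696-42988995, plus strand) lay above all saline libraries in both oxycodone groups, and Zfp180 (chr1:88780092-88780391, plus strand) had the smallest p-value in IUO against saline.
Zfp141: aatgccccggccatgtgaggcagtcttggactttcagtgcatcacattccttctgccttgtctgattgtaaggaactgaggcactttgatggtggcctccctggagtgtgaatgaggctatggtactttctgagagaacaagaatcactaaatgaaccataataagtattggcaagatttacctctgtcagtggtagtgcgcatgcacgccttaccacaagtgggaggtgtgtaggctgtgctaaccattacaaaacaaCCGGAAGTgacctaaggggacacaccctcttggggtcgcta
Zfp646: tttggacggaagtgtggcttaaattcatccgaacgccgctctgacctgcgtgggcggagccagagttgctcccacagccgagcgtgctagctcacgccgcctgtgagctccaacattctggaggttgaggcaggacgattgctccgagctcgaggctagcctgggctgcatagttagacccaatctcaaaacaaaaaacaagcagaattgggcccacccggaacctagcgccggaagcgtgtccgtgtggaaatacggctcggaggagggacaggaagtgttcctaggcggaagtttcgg
Zfp467: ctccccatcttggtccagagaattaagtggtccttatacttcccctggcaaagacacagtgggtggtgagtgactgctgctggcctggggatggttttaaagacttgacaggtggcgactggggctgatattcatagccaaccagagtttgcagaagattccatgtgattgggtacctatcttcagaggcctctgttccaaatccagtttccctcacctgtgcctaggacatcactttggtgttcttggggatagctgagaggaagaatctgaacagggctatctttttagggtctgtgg
Zfp692: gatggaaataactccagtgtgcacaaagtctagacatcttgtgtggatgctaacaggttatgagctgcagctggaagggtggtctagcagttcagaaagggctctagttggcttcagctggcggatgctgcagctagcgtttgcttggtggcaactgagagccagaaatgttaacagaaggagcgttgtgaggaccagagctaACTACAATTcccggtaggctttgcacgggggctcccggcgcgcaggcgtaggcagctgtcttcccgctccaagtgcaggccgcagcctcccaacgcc
Zfp180: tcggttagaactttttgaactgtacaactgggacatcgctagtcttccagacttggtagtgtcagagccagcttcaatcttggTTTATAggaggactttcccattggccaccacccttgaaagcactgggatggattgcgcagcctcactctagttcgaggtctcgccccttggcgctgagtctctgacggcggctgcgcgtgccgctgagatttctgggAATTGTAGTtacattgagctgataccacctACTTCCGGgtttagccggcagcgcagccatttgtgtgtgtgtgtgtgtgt

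Exact matches on both strands were counted for 7 motifs in the members' 190 promoters, in 11135 promoters of tested genes and in all 33469 promoters of the table. The ETS motif CCGGAAGT was present in 11.1% of the members' promoters, 7.41% of those of tested genes and 3.81% of all. In Zfp141 it lay at bases 10 to 17 after the start, and in Zfp180 its reverse complement lay at bases 1 to 8. ACTACAATT, the core bound by ZNF143, was found in 3 of the members' promoters, a share of 1.58%, against 0.7% and 0.397%. Both Zfp692, at bases -47 to -39, and Zfp180, on the opposite strand at bases -30 to -22, carried it. AAGATGGCG, the YY1 motif, stood in 3.68% of the members' promoters, against 3.33% and 1.73%, and GCGCATGCG, from the NRF1 motif, in 5.79%, against 3.12% and 1.52%. The GC box GGGGCGGGG was in 11.6% of the members' promoters, below the 2224 of 11135 among tested genes and above the 9.73% of all. TATAAA was in 7.89%, against 6.64% and 14.2%, and Zfp180 held its reverse complement at bases -167 to -162. TCTCGCGAG, from the Kaiso motif, was in 1.05%, against 1.19% and 0.529%. The members' promoters had a median GC content of 57.0% and 18 CpG sites, tested genes 61% and 20, and all promoters 51.7% and 7. Motif matches overlapped in none of the 5 promoters shown, and a match describes only the letters in this window.

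Most members were expressed at low levels. Their mean FPKM over the 12 libraries had a median of 3.196, with the middle of the distribution between 1.79 and 5.574, while the median over all genes tested was 6.162. Only 22 members reached 10 FPKM, and 53 lay below 2 FPKM. Of the 188, 79 were annotated to the KEGG map of herpes simplex infection, which lists many KRAB zinc finger genes and serves here as a stand-in for that class. Those 79 had a median of 2.577 FPKM and the other 109 a median of 4.216, and 1 of the 22 members at 10 FPKM or more was on the map. The highest was Zfp365, which encodes a protein that binds the neuronal scaffold DISC1, at a mean of 50.75 FPKM on chromosome 20. It was followed by Zfp523 at 35.75, Zfp771 at 34.04, Zfp428 at 28.26, Zfp180, the one on the map, at 25.24 and Zfp580 at 25.17 FPKM. The members nearest the limit of the rule were Zfp563 at 1.008, Zfp54 at 1.012 and Zfp462 at 1.016 FPKM, and the nearest left out were Zfp78 at 0.9773, Zfp800 at 0.9507 and Zfp521 at 0.9455.

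**Figure D1:**
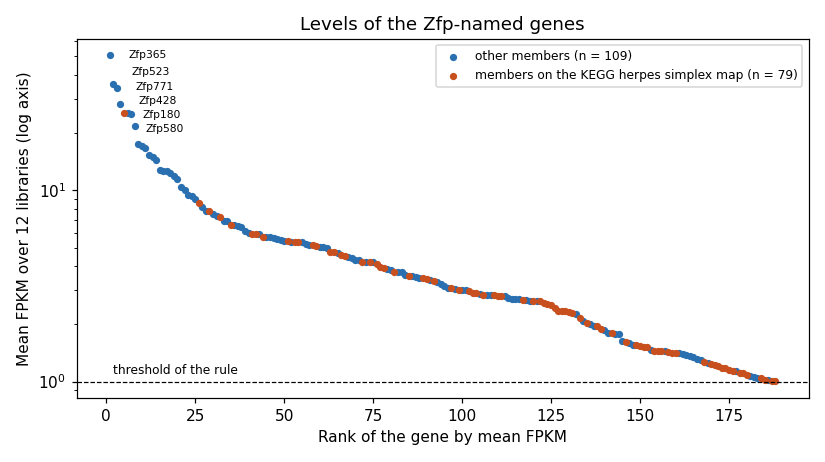
Mean FPKM over the 12 libraries (log axis) of each of the 188 members against its rank, with members on the KEGG herpes simplex map in orange and the others in blue. Zfp365 stands highest at 50.75 FPKM, and only 1 of the 22 members at 10 FPKM or more is on the map.

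Of the 6 most abundant members, Zfp180 had the smallest p in IUO against saline, at a log2 value of -0.38, and its libraries are given with that comparison. The other 5 differed from saline by log2 values between -0.15 and 0.10. Zfp365 was at 264, 223, 242 and 241 CPM in saline, 221, 260, 198 and 232 CPM in PNO and 258, 244, 226 and 253 CPM in IUO. The 3 groups overlapped, and the log2 fold changes against saline were -0.09 in PNO and 0.02 in IUO. Zfp523 differed from saline by -0.03 and -0.15, Zfp771 by -0.05 and 0.01, Zfp428 by -0.14 and 0.10 and Zfp580 by 0.01 and 0.05 in PNO and IUO respectively.

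Gene positions below are those printed in the deposited table, whose genome build the sources used here do not name. Chromosome 1 held 59 members, or 31.4% of them, against 12.7% of all genes tested. Runs of at least 4 members with gaps of at most 500 kb formed 11 clusters, 7 of them on chromosome 1. The largest, with 10 members from Zfp84 to Zfp146, spanned 84987377 to 85436275 on chromosome 1, and 8 of its 10 genes were on the KEGG map. A cluster of 8 genes from Zfp398 to Zfp775 spanned 76849681 to 77575296 on chromosome 4. A cluster of 6 genes from Zfp871 to Zfp563, all on the KEGG map, spanned 11845560 to 12266003 on chromosome 7. Gene length, taken from the ratio of counts to FPKM, had a median of 4244 bases in members and 3111 in all genes tested.

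As a set the members stood lowest in saline and highest in PNO, with small differences per gene. In each library the deviation of each member's log2 CPM from its own mean over the 12 libraries was taken, and the median over members was found. It was -0.071, -0.016, -0.047 and -0.078 in saline 1 to 4. The PNO libraries gave 0.090, 0.077, -0.007 and 0.039, and the IUO libraries -0.010, 0.041, 0.028 and -0.040. All 4 saline libraries lay below all 4 PNO libraries, while IUO 4 lay among the saline libraries. Group means were -0.053 ± 0.028 in saline, 0.050 ± 0.044 in PNO and 0.005 ± 0.037 in IUO (SD, n = 4). The same medians over all genes tested stayed between -0.004 and 0.009 in the 12 libraries. In saline 4, 29.8% of members were above their own mean, and in PNO 1 69.7% were.

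**Figure D2:**
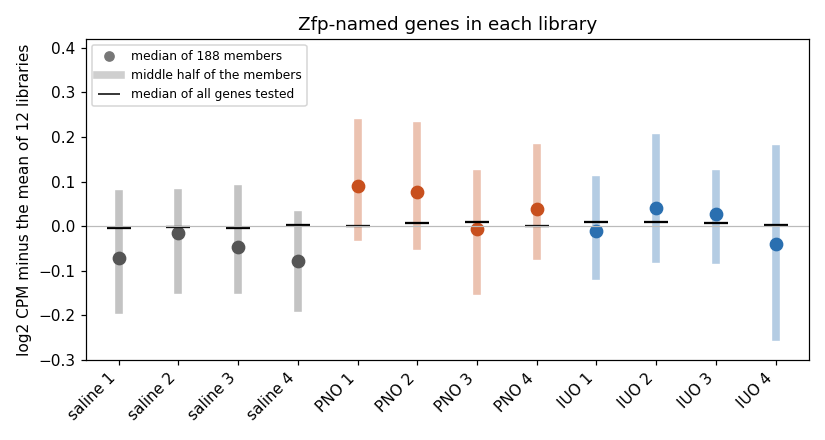
Log2 CPM of the members in each library minus each gene's mean over the 12 libraries, with the median as a point, the 25th to 75th percentile as a bar and the median of all genes tested as a black line. Saline libraries lie between -0.078 and -0.016, PNO libraries between -0.007 and 0.090 and IUO libraries between -0.040 and 0.041.

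The summed FPKM of the members was 962.7 ± 27.2 in saline, 1032 ± 31.2 in PNO and 1002 ± 14.7 in IUO (SD, n = 4). As a share of all FPKM this was 0.1925% to 0.2103% in saline, 0.2211% to 0.239% in PNO and 0.2113% to 0.2206% in IUO. The shares in saline did not overlap with those of either oxycodone group. The summed FPKM itself overlapped between saline and IUO, since saline 2 was at 991.2 and IUO 1 at 986.3. A share also depends on the FPKM of all other genes. Counts from mitochondrially encoded genes were 17.03% to 18.85% of the total in saline, 15.51% to 17.74% in PNO and 15.11% to 17.1% in IUO. Their part in the members' shares was not tested. Since the members were chosen with earlier results of these data known, the members' shares are a description with no test.

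In PNO against saline, no single Zfp gene passed the test, yet 139 of 188 members were higher in PNO and 49 were lower. The positive share was 73.9%, beside 51.2% of all genes tested. The median log2 fold change was 0.11 over members and 0.007 over all genes tested. On the KEGG map the median was 0.105 and off it 0.108. With edgeR's quasi-likelihood test and Benjamini-Hochberg adjustment over all genes, 0 members were called, beside 0.0% of all genes, and the smallest adjusted p among members was 0.305. At an unadjusted p under 0.05, 25 members were higher, or 13.3%, beside 6.82% of all genes tested, and 2 were lower, or 1.06%, beside 4.22%. All 4 PNO libraries lay above all 4 saline libraries for 19 members, or 10.1%, beside 5.17% of all genes, and below them for 3 members, or 1.6%, beside 4.66%.

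**Figure D3:**
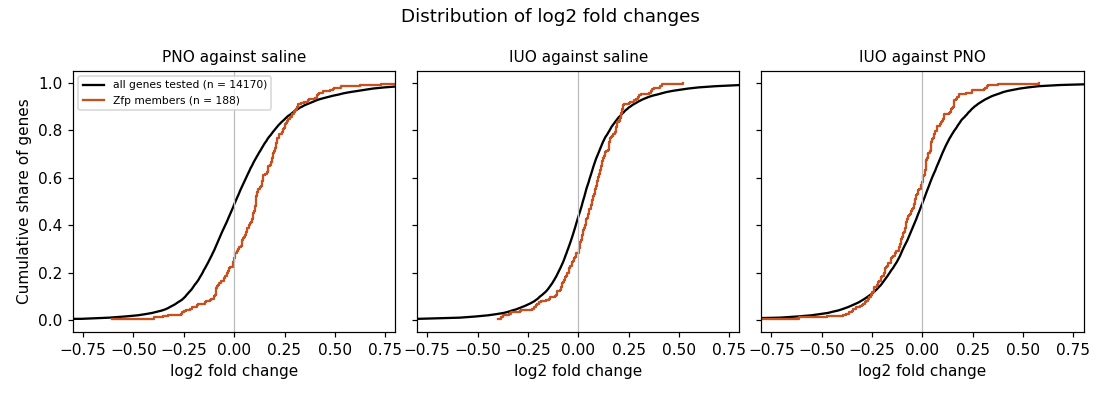
Cumulative share of genes against the log2 fold change in the 3 comparisons, for the 188 members in orange and all 14170 genes tested in black, with the axis limited to 0.8 either way. The members' curve lies to the right of all genes in PNO against saline, where their medians are 0.11 and 0.007, by less in IUO against saline and slightly to the left in IUO against PNO.

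DESeq2 called 3 members in this comparison, beside 0.826% of the genes it tested, and limma on log2 FPKM called 0. The 3 were Zfp141 at an adjusted p of 0.00217, Zfp646 at 0.0176 and Zfp467 at 0.0482 by DESeq2, each at 0.305 by edgeR.

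Zfp141, which is on the KEGG map and lies on chromosome 1 from 93130598 to 93163404, had the largest difference. It was at 3.87, 5.15, 2.48 and 3.32 CPM in saline, at 10.9, 9.16, 6.66 and 8.34 CPM in PNO, and at 6.73, 3.46, 4.97 and 4.58 CPM in IUO. Every PNO library lay above every saline library, and 3 of 4 PNO libraries lay above every IUO library. The group means were 3.71 ± 1.12, 8.77 ± 1.77 and 4.94 ± 1.36 CPM (SD, n = 4), and PNO was 2.37-fold higher than saline (log2 1.24, SE 0.25). When each library was left out in turn the log2 value lay between 1.09 and 1.44. It was 0.98 with both regional marker scores as covariates and 1.29 without the libraries with a raised bulb score, which left PNO 2 as the only PNO library.

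Zfp646 lies on chromosome 1 from 182485949 to 182494731 and is not on the KEGG map. It was at 16.9, 17.7, 15.5 and 20.7 CPM in saline and at 24.4, 25.4, 24.8 and 25.1 CPM in PNO. The groups did not overlap, and the PNO values had the narrower spread. The IUO values of 23.5, 20.2, 21.4 and 17.5 CPM overlapped with saline. The log2 fold change in PNO was 0.49 (SE 0.11), and it was 0.32 with the scores as covariates.

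Zfp467, which affects the choice between bone and fat cell fates, lies on chromosome 4 from 77385758 to 77392229. Its values were 11.1, 14.3, 15.5 and 13.7 CPM in saline, 18.3, 22.4, 21.4 and 22.2 CPM in PNO and 15.3, 22.0, 20.7 and 12.7 CPM in IUO. PNO did not overlap with saline, whereas IUO 1 and IUO 4 lay within the saline range. The log2 fold change in PNO was 0.63 (SE 0.17). It was 0.13 with both regional marker scores as covariates and 0.70 without the libraries with a raised bulb score.

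Zfp746, the gene of the parkin target PARIS, lies in the same chromosome 4 cluster, from 77055008 to 77078897. Its values were 20.1, 20.3, 21.6 and 19.4 CPM in saline and 25.9, 22.6, 24.7 and 27.6 CPM in PNO. In IUO they were 24.2, 22.0, 24.6 and 22.9 CPM. Both oxycodone groups lay wholly above saline, by a log2 value of 0.31 in PNO and 0.20 in IUO (SE 0.09 for each). Without the libraries with a raised bulb score the PNO value was 0.14. Across the chromosome 4 cluster, one of the 11, 8 of 8 genes had a positive log2 value in PNO, beside 51.2% of all genes tested, with a median of 0.21. In the same cluster 4 genes were higher at an unadjusted p under 0.05, beside 6.82% of all genes. With both regional marker scores as covariates the cluster's median was 0.087, with 6 positive. In that setting 0 of its genes were higher at an unadjusted p under 0.05, beside 2.12% of all genes. Without the libraries with a raised bulb score the cluster's median was 0.274, with 8 positive. In the chromosome 7 cluster 2 of 6 genes were positive, with a median of -0.06. In the cluster of 10 genes on chromosome 1 there were 9, with a median of 0.137. None of those 10 was at an unadjusted p under 0.05, beside 6.82% of all genes higher and 4.22% lower.

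Zfp142, whose human counterpart is a neurodevelopmental disorder gene, was at 39.3, 42.5, 44.2 and 44.1 CPM in saline and at 53.2, 58.8, 51.9 and 56.4 CPM in PNO, a log2 fold change of 0.37 (SE 0.11). That value was 0.003 with the scores as covariates and 0.45 without the libraries with a raised bulb score. IUO gave 50.9, 48.4 and 52.1 CPM in 3 libraries, above all saline values, and 35.03 CPM in IUO 4, below them all. Zfp324 was at 7.75, 7.93, 8.95 and 6.95 CPM in saline and at 10.8, 10.04, 9.38 and 11.5 CPM in PNO, without overlap (log2 0.40, SE 0.12). Its IUO values ran from 7.73 to 9.19 CPM and overlapped with saline.

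**Figure D4:**
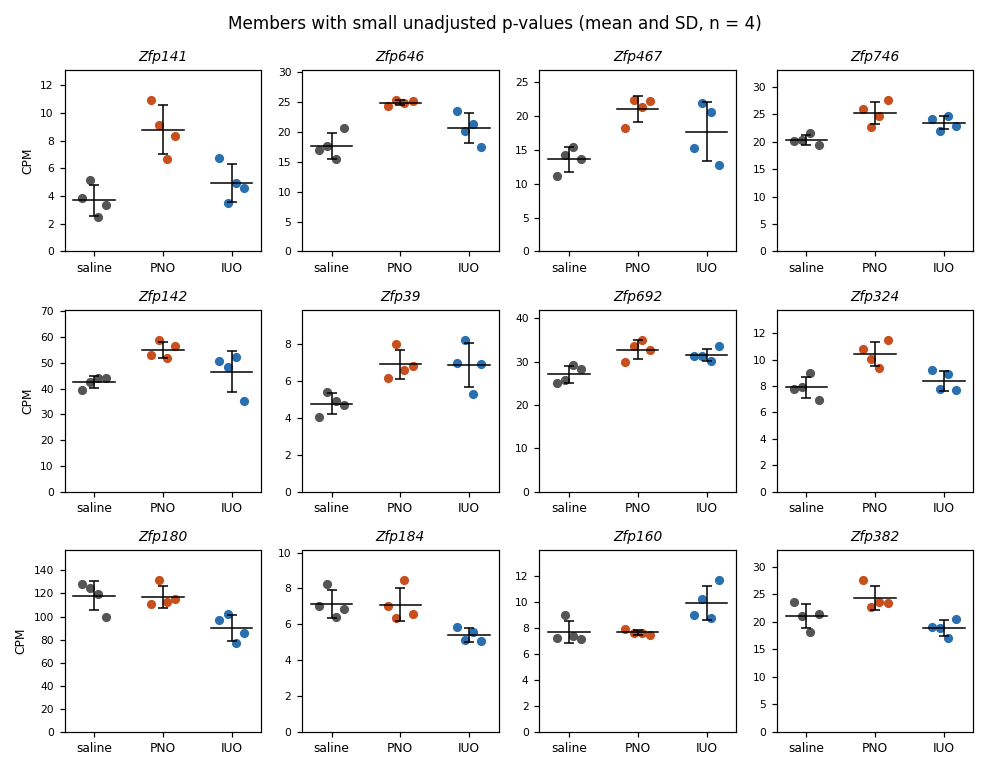
CPM of 12 members with small p-values in one of the comparisons, 1 point per library, with the group mean and SD as bars (n = 4). Zfp141 lies between 6.66 and 10.9 CPM in PNO and between 2.48 and 5.15 in saline, while Zfp180 lies between 76.8 and 102 CPM in IUO and between 99.6 and 128 in saline.

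The 27 members at an unadjusted p under 0.05 became 14 without the libraries with a raised striatal score, where the median log2 fold change was 0.112. Those higher were 7.45% of members beside 4.09% of all genes. Without the libraries with a raised bulb score, where PNO 2 alone stood for PNO, the median was 0.108. With both regional marker scores as covariates the count was 5 and the median 0.061, and those higher were 2.13% of members beside 2.12% of all genes. The count was 17 without PNO 2 and 16 without PNO 4. After a trend with gene length was removed the median was 0.056 (Spearman's rho of log2 fold change with length 0.329 across the 14170 genes tested and 0.103 across members). The part of the scores in the difference was not tested.

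In IUO against saline the members' difference had the same sign and was smaller. The median log2 fold change was 0.069, beside 0.023 over all genes tested, and 135 members were higher and 53 lower, a positive share of 71.8% beside 56.4%. By edgeR 0 members were called, beside 0.0% of all genes, and the lowest adjusted p was 0.998, while DESeq2, which called 0.0777% of genes, and limma also called 0 members. At an unadjusted p under 0.05, 12 members were higher, or 6.38%, beside 2.31% of all genes, and 3 were lower, or 1.6%, beside 1.71%. All 4 IUO libraries lay above all 4 saline libraries for 5 members, or 2.66%, beside 1.15% of all genes, and below them for 1, or 0.532%, beside 1.03%. This comparison and the previous one share the saline libraries.

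Zfp39, which is on the KEGG map and lies on chromosome 10 from 43656444 to 43679743, had a similar level in both oxycodone groups. It was at 4.05, 5.41, 4.91 and 4.66 CPM in saline, 6.15, 7.96, 6.59 and 6.78 CPM in PNO and 6.95, 8.18, 5.27 and 6.92 CPM in IUO. PNO did not overlap with saline, and IUO 3 lay within the saline range. The log2 fold changes were 0.53 in PNO and 0.52 in IUO (SE 0.16 for each), with edgeR adjusted p of 0.337 and 0.998.

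Zfp692, first described as a repressor of a gluconeogenic enzyme gene, lies on chromosome 10 from 42488588 to 42496018. It was at 25.1, 25.8, 29.3 and 28.2 CPM in saline, 29.98, 33.6, 34.99 and 32.7 CPM in PNO and 31.2, 31.2, 30.1 and 33.5 CPM in IUO. Both oxycodone groups lay above all saline libraries, by a log2 value of 0.28 and 0.22 (SE 0.09 for each). Zfp496 gave log2 fold changes of 0.33 in PNO and 0.30 in IUO (SE 0.12 for each), with IUO libraries from 13.5 to 15.8 CPM and saline from 10.8 to 14.2. Zfp691 was at 5.37, 5.44, 6.28 and 6.16 CPM in saline and at 7.37, 6.58, 8.41 and 7.51 CPM in IUO, without overlap (log2 0.36, SE 0.13), and its PNO difference was 0.19.

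Zfp180, the fifth most abundant member, had the smallest p in this comparison. It lies on chromosome 1 from 79652441 to 79672733 and heads a cluster of 8 genes. Its values were 128, 125, 119 and 99.6 CPM in saline, 110, 131, 112 and 115 CPM in PNO and 97.1, 102, 76.8 and 85.4 CPM in IUO. IUO 2 exceeded the lowest saline library, and all 4 IUO libraries lay below all 4 PNO libraries. The group means were 118 ± 12.7, 117 ± 9.57 and 90.3 ± 11.4 CPM (SD, n = 4), and the log2 value of IUO against saline was -0.38 (SE 0.11, edgeR adjusted p 0.998). The PNO difference was -0.01.

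Zfp184, on chromosome 17, was at 7.01, 8.25, 6.38 and 6.87 CPM in saline, 6.997, 6.37, 8.45 and 6.60 CPM in PNO and 5.87, 5.13, 5.57 and 5.04 CPM in IUO. All 4 IUO libraries lay below every library of the other groups, with a log2 value of -0.40 against saline (SE 0.14). Zfp160, on chromosome 1, went the other way, at 7.24, 8.96, 7.36 and 7.15 CPM in saline, 7.89, 7.58, 7.62 and 7.48 CPM in PNO and 8.99, 10.2, 8.78 and 11.7 CPM in IUO, a log2 value of 0.37 against saline (SE 0.13). Every IUO library was above every PNO library, whereas saline 2 overlapped with IUO. The table describes this gene as a vomeronasal receptor in spite of its symbol, so its identity is uncertain. Zfp958 ran from 25.6 to 32.0 CPM in IUO and from 28.6 to 38.8 in saline, a log2 value of -0.29 (SE 0.12).

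The 15 members at an unadjusted p under 0.05 in IUO against saline became 7 without the libraries with a raised bulb score, 8 without PNO 1, which entered only through the shared fit, and 9 without IUO 1. Without the libraries with a raised bulb score, those higher were 2.13% of members beside 2.28% of all genes, and those lower 1.6% beside 1.75%. With both regional marker scores as covariates the count was 13, with 3.72% higher beside 3.96% of all genes and 3.19% lower beside 2.89%. The median log2 fold change was 0.047 without the libraries with a raised bulb score, 0.041 without those with a raised striatal score and 0.029 with both regional marker scores as covariates.

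Set against each other, IUO and PNO gave a median log2 value of -0.038 over members, IUO minus PNO, beside 0.004 over all genes tested. Of the members 109 were lower in IUO and 79 higher, a positive share of 42% beside 50.8%. By edgeR 0 were called, beside 0.0% of all genes, and the lowest adjusted p was 0.714, while DESeq2, which called 0.0565% of genes, and limma also called 0. At an unadjusted p under 0.05, 13 were lower, or 6.91%, beside 3.06% of all genes, and 3 were higher, or 1.6%, beside 3.67%. All 4 IUO libraries lay below all 4 PNO libraries for 11 members, or 5.85%, beside 1.78%, and above them for 2, or 1.06%, beside 1.85%. The leading members were Zfp180 at -0.38 (SE 0.11), Zfp382 at -0.37 (SE 0.11) and Zfp141 at -0.83 (SE 0.25) on the log2 scale. Zfp382 was at 27.6, 22.8, 23.6 and 23.4 CPM in PNO and at 19.1, 18.8, 17.0 and 20.6 CPM in IUO, without overlap, while its saline values of 18.1 to 23.6 CPM overlapped with both. Zfp777, in the chromosome 4 cluster, was at 43.3, 49.95, 48.8 and 45.5 CPM in PNO and at 37.95, 37.5, 42.4 and 37.99 CPM in IUO, also without overlap (log2 -0.27, SE 0.09). Zfp407 was lower in IUO by a log2 value of -0.25 (SE 0.10), with 14.9 to 17.9 CPM against 18.04 to 20.6. The 16 members at an unadjusted p under 0.05 became 4 with the scores as covariates and 9 without PNO 4. With the covariates 2.13% of members were lower at that threshold, beside 1.88% of all genes, and 0.0% were higher, beside 1.54%. The median log2 value was -0.025 with the scores as covariates and -0.066 without the libraries with a raised bulb score. Spearman's rho of log2 fold change with gene length was -0.281 across all genes tested and -0.192 across members. The part of length in the difference was not tested.

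Members with known functions were grouped by 4 lists. Of genes with roles in neural development, 11 were members, with a median log2 fold change of 0.141 in PNO and 0.071 in IUO. None had an unadjusted p under 0.05 against saline, beside 6.82% of all genes higher and 4.22% lower in PNO. In IUO those shares of all genes were 2.31% and 1.71%. The list's medians were both negative, at -0.084 and -0.082, with both regional marker scores as covariates. Its IUO median was -0.051 without the libraries with a raised striatal score. Zfp703, a corepressor, was at 33.4 ± 6.04, 36.6 ± 2.58 and 39.0 ± 5.54 CPM in saline, PNO and IUO, and Zfp292, an intellectual disability gene, at 15.8 ± 2.33, 17.4 ± 3.53 and 18.3 ± 1.60 CPM (SD, n = 4). The 4 silencing factors among the members were Zfp57, Zfp445, Zfp90 and Zfp382, and their medians were 0.231 in PNO, with 4 of 4 positive, and 0.161 in IUO, with 3 of 4 positive.

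Zfp57 binds methylated imprinting control regions and keeps them methylated. It was at 21.7, 23.1, 15.1 and 15.4 CPM in saline, 25.1, 36.4, 23.1 and 21.4 CPM in PNO and 25.2, 28.0, 23.8 and 22.8 CPM in IUO. PNO 2 stood highest, and both oxycodone groups overlapped with the upper saline libraries. The log2 fold changes were 0.49 and 0.41 (SE 0.18 for each), with edgeR adjusted p of 0.397 and 0.998. Within each group the highest library was one with a raised striatal score, namely saline 2, PNO 2 and IUO 2, and the part of that score in the difference was not tested. Zfp445, which also guards imprints, was at 33.0 ± 3.83, 35.5 ± 3.44 and 35.6 ± 4.35 CPM in saline, PNO and IUO (SD, n = 4).

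The 10 members listed for roles in RNA or translation had medians of 0.055 in PNO and 0.042 in IUO. Zfp598, a ubiquitin ligase that marks collided ribosomes, was at 38.2, 36.1, 43.8 and 41.8 CPM in saline and at 47.2, 44.7, 47.6 and 44.9 CPM in PNO, without overlap (log2 0.21, SE 0.09, edgeR adjusted p 0.436). Its IUO values were 41.1, 38.2, 45.5 and 36.9 CPM, within the range of the other groups. Zfp207, the symbol of a spindle assembly factor although the table annotates it as a pseudogene, was at 41.6 ± 3.73, 49.1 ± 4.53 and 38.6 ± 9.22 CPM (SD, n = 4), with IUO 4 lowest at 25.1. Its log2 value in PNO against saline was 0.24 (SE 0.15), and it was -0.19 (SE 0.21) with both regional marker scores as covariates. Zfp326, part of a complex that links elongation to splicing, was at 13.6 ± 1.59, 12.9 ± 2.37 and 11.8 ± 1.77 CPM, and Zfp277 at 11.8 ± 0.705, 12.8 ± 0.519 and 13.2 ± 0.452 CPM in saline, PNO and IUO.

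Of 24 members listed for roles in transcription, 18 were above saline in PNO and 19 in IUO, with median log2 values of 0.112 and 0.054. These are shares of 75% and 79.2%, near the 73.9% and 71.8% of all members, beside 51.2% and 56.4% of all genes tested. With both regional marker scores as covariates 12 and 12 of the list were above saline, with medians of -0.024 and 0.010. Zfp652, a repressor that works with ETO-family corepressors, was at 4.07, 2.38, 2.92 and 3.46 CPM in saline, 4.35, 4.56, 4.23 and 3.95 CPM in PNO and 4.54, 4.80, 4.33 and 3.42 CPM in IUO. The log2 fold change was 0.41 in PNO and 0.42 in IUO (SE 0.18 for each), and both groups overlapped with saline. Zfp384 ran from 36.0 to 46.8 CPM in saline and from 46.6 to 51.2 in PNO (log2 0.30, SE 0.13), and Zfp362 from 13.8 to 17.9 in saline and from 18.5 to 23.4 in PNO (log2 0.35, SE 0.15). Zfp367 went the other way, from 9.56 to 10.06 CPM in PNO and from 10.06 to 12.95 CPM in saline (log2 -0.24, SE 0.14). With the scores as covariates, these PNO values became -0.05 for Zfp384, 0.05 for Zfp362 and 0.08 for Zfp367.

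By the Gene Ontology terms in the table, 30 members were activators only and 26 repressors only. In PNO against saline their medians were 0.123 and 0.112, with 24 and 21 positive, and in IUO against saline 0.082 and 0.064, with 23 and 17 positive. In IUO against PNO the medians were -0.021 and -0.056, with 14 of 30 and 5 of 26 positive. Over all genes tested the positive shares in these 3 comparisons were 51.2%, 56.4% and 50.8%. With the scores as covariates, the repressors' median in IUO against saline was -0.015. The difference between these classes was not tested.

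The partners through which KRAB proteins act were 20 measured genes. In PNO against saline, 14 were higher and 6 lower, a positive share of 70% beside 51.2% of all genes tested. The median log2 fold change was 0.14, and 0 were called by edgeR. At an unadjusted p under 0.05, 7 were higher, or 35%, beside 6.82% of all genes tested. With both regional marker scores as covariates 2 were, beside 2.12% of all genes, and the median was 0.051. Without the libraries with a raised bulb score the median was 0.102. In IUO against saline the median was 0.01 and none reached that threshold, beside 2.31% of all genes higher and 1.71% lower. The scaffold gene Trim28 was at 132, 139 and 133 CPM on average in saline, PNO and IUO, a log2 fold change of 0.075 in PNO. Setdb1, which trimethylates histone H3 for KRAB silencing, was at 36.3, 38.1, 31.8 and 34.8 CPM in saline and at 43.2, 46.3, 40.1 and 43.1 CPM in PNO, without overlap (log2 0.29, SE 0.09). Ehmt1, another histone methyltransferase, was at 26.6, 24.9, 23.4 and 20.2 CPM in saline and at 29.9, 30.8, 30.4 and 31.9 CPM in PNO (log2 0.37, SE 0.10), and Chd4, a NuRD remodeller, was 0.20 higher (SE 0.06). Chd3, its relative, was at 561 ± 43.2, 682 ± 46.1 and 522 ± 84.6 CPM in saline, PNO and IUO (SD, n = 4). Setdb1, Ehmt1, Chd4 and Chd3 were named for the smallest p in the list. The 6 genes lower in PNO included Cbx5 and Cbx3, which encode heterochromatin proteins. Cbx5 ran from 20.7 to 27.9 CPM in saline and from 18.9 to 20.8 in PNO. Cbx3 ran from 118 to 135 CPM in saline and from 103 to 124 in PNO. The edgeR adjusted p in PNO against saline was 0.355 for Setdb1, 0.305 for Ehmt1, 0.337 for Chd4 and 0.412 for Chd3. With both regional marker scores as covariates, the PNO log2 value was 0.09 for Setdb1 (SE 0.13) and 0.20 for Ehmt1 (SE 0.16). It was 0.24 for Chd4 (SE 0.105) and 0.07 for Chd3 (SE 0.15), whose main value was 0.28.

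Other families of zinc finger genes had medians on either side of that of the members in PNO against saline. The 34 Zbtb genes had a median of 0.154 with 29 positive, the 16 Zscan and Zkscan genes 0.014 with 10 positive, and the 13 Klf genes 0.018 with 7 positive. The 35 autosomal Zfp genes between 0.5 and 1 FPKM had a median of 0.197 with 27 positive. The positive share of all genes tested was 51.2%. With both regional marker scores as covariates, the Zscan and Zkscan median was -0.229 and the Zbtb median 0.057, and without the libraries with a raised bulb score the Klf median was -0.044. The difference between families was not tested.

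Some members varied more between libraries of a group than between groups. Zfp579, on chromosome 1, was listed at 0 counts in PNO 3, which allows up to 0.0506 CPM, while the other 11 libraries held 1236 to 1777 counts. The other PNO libraries were at 24.2, 28.3 and 30.1 CPM, and saline ran from 23.2 to 30.4 CPM. Its neighbour Zfp865, looked at after this value was seen, was at 60.6 CPM in PNO 3, the highest of the 12 libraries, which ran from 38.8 CPM upwards. Zfp455, on chromosome 2, was listed at 0 counts in saline 1, which allows up to 0.0494 CPM, and held 147 to 263 counts in the other 11. Limits of this kind cover counting error only, and an exact 0 can also be a failed estimate in the counting step.

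Zfp106, whose loss in mice leads to motor neuron degeneration, had high and low libraries in each group. It was at 59.4, 30.4, 22.4 and 20.1 CPM in saline, 55.3, 66.7, 22.9 and 30.6 CPM in PNO and 49.6, 52.8, 23.3 and 25.4 CPM in IUO. The 5 libraries at 49.6 CPM or more were saline 1, PNO 1, PNO 2, IUO 1 and IUO 2, and the other 7 were at 30.6 CPM or less. The log2 value in IUO against saline was 0.19 (SE 0.41), and it was -0.48 (SE 0.47) without the libraries with a raised striatal score. Zfp536, a repressor of neuronal differentiation, was at 10.04, 10.3, 9.21 and 4.54 CPM in saline, 5.04, 5.67, 4.96 and 6.70 CPM in PNO and 11.1, 12.4, 5.14 and 4.77 CPM in IUO. Saline 1 to 3 and IUO 1 and 2 were the high libraries, and the log2 value in PNO against saline was -0.61 (SE 0.32, edgeR adjusted p 0.511).

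**Figure D5:**
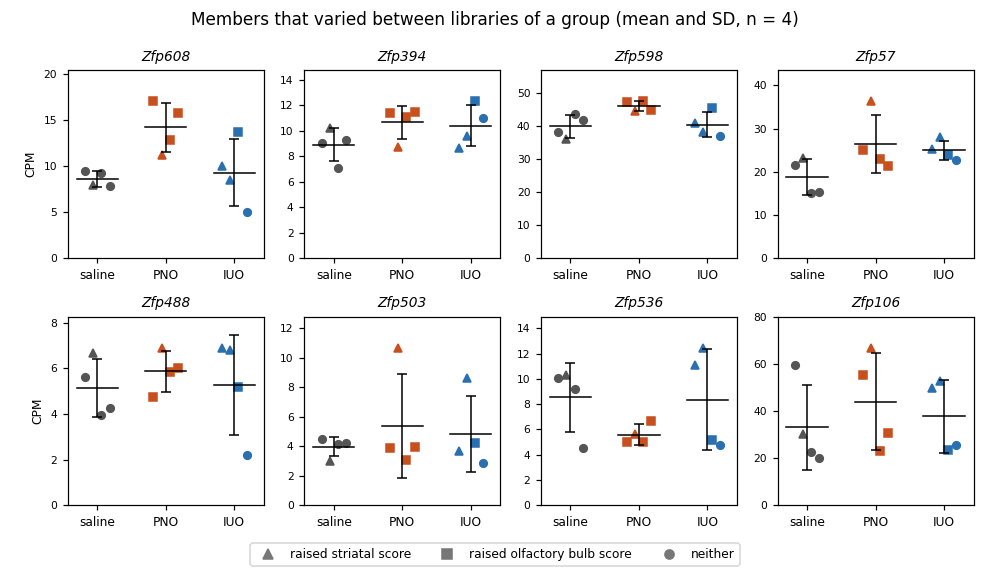
CPM of 8 members by group, 1 symbol per library, with triangles for libraries with a raised striatal score, squares for a raised olfactory bulb score and circles for neither, and the group mean and SD as bars (n = 4). Zfp608 is highest in PNO libraries with a raised bulb score, at up to 17.1 CPM, and Zfp503 is highest in PNO 2 at 10.7 and IUO 2 at 8.59 CPM.

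Few members separated the libraries with a raised marker score from all others. All 4 libraries with a raised bulb score lay above the other 8 for Zfp608, Zfp746, Zfp394 and Zfp598, which is 4 of 188 members, or 2.13%, beside 1.21% of all genes tested, and no member lay below, beside 0.226%. Zfp608 was at 17.1, 12.9 and 15.8 CPM in PNO 1, PNO 3 and PNO 4 and at 13.7 CPM in IUO 3, and the other 8 libraries ran from 5.01 to 11.2 CPM. Its log2 values were 0.73 in PNO against saline (SE 0.24, edgeR adjusted p 0.355) and -0.61 in IUO against PNO (SE 0.24). The first was -0.12 with both scores as covariates and 0.37 without the libraries with a raised bulb score, and the part of the score in these was not tested. Zfp394 was at 11.4, 11.1 and 11.5 CPM in PNO 1, PNO 3 and PNO 4 and 12.3 CPM in IUO 3, against 7.10 to 10.97 CPM elsewhere.

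All 4 libraries with a raised striatal score lay above the other 8 for 1 member, or 0.532%, beside 1.26% of all genes tested, and no member lay below, beside 0.381%. This was Zfp488, which promotes oligodendrocyte differentiation, at 6.67 CPM in saline 2, 6.88 in PNO 2, 6.88 in IUO 1 and 6.80 in IUO 2, against 2.19 to 6.02 CPM in the other 8. The oligodendrocyte marker score, a mean log2 CPM over 8 genes, was 9.386 to 9.797 in these 4 libraries and 8.524 to 9.0 in the others. Zfp503, a regulator of striatal development, was at 10.7 CPM in PNO 2 and 8.59 CPM in IUO 2, the 2 libraries with the highest striatal scores, but at 3.01 CPM in saline 2 and 3.67 CPM in IUO 1. The remaining 8 libraries were at 2.89 to 4.49 CPM.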

How the data were processed

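Poly(A)-selected stranded RNA libraries from the prefrontal cortex of 12 rats, 4 per group, were used. Per the submitters' processing notes, HISAT2 was used for alignment and StringTie for quantification (versions, settings, build, annotation: not given in the sources used here). A table deposited by the authors gives each gene's whole-number counts and its FPKM per library, per the file headers.

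The 14170 genes whose FPKM averaged 0.5 or more were tested with edgeR 4.0.16 (quasi-likelihood test on counts, TMM factors, 1 model with 3 groups, two-sided, Benjamini-Hochberg over all genes, threshold 0.05). CPM use TMM-scaled totals, except summed marker levels, which use plain totals; log2 CPM had a prior count of 2. SE is that of edgeR's log2 fold change. On simulated data for PNO against saline with 14170 genes, 33% of genes changed 1.5-fold and 64% changed 2-fold were recovered, with 4 false calls. R 4.3.3, DESeq2 1.42.0, limma 3.58.1, Python 3.11.15 and matplotlib 3.10.9 were used too.

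The alternatives were DESeq2, limma on log2(FPKM + 0.5) and with pseudocounts of 0.1 and 1, other size factors, no filter or a filter at 2 FPKM, only the 2 groups compared, a replicate block, striatal and bulb scores as covariates, libraries with raised scores left out, a length trend removed, and each library left out in turn. A score was the mean log2 CPM of a marker list, and a library was raised where it lay over 0.5 above the median of the 12.

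The members and lists were chosen with earlier results of these data known. Genes named were the 8 members with the smallest unadjusted p in each comparison, the 6 highest in mean FPKM, the 3 on each side of the limit, the 5 with the largest SD of log2 CPM, up to 4 per role list by p, up to 4 that separated the libraries with a raised score from all others, and 4 of the KRAB partner list; Trim28 and Zfp865 were added after their values were seen. Neighbouring copies and the 6 member genes whose symbol is shared by another row were counted as the authors gave them. Motif searches used Python. Protein sequences were not analysed here. One gene of the cortical marker list is not reported here, and the summed level leaves it out.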

Additional observations from a re-analysis of the deposited data

Results flagged for a closer look

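For the 46 members named by rule, the highest and lowest library of each group of 4 was set against the others of its group, and the gap on the log2 CPM scale was compared with the 95% critical value of Dixon's test, so that the result does not follow exactly from the CPM printed here. Chance alone gives about 1 in 20 such groups for genes picked without regard to their spread, and 11 of 138 groups were past the value. Some of the 46 were named for a large SD or for separating libraries in these same data. Zfp579, Zfp455 and Zfp394 were among them, so the count cannot be set against the chance rate. Of these, 2 were zeros: Zfp579 in PNO 3 at 0.0 CPM, against 24.2, 28.3 and 30.1 in the other PNO libraries, and Zfp455 in saline 1 at 0.0 CPM, against 4.17, 3.12 and 4.64. Zfp536 was at 4.54 CPM in saline 4, against 10.04, 10.3 and 9.21.

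Among members named for small p-values or high levels, Zfp160 was at 8.96 CPM in saline 2, against 7.24, 7.36 and 7.15. Zfp777 stood at 42.4 CPM in IUO 3, against 37.95, 37.5 and 37.99. Zfp580 was at 25.8 CPM in PNO 2, against 36.5, 36.1 and 38.5. Zfp54, just inside the limit of the rule, was at 3.37 CPM in IUO 1, against 4.89, 4.83 and 4.69.

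Of the members with listed roles, Zfp207 was at 47.2 CPM in saline 3, against 39.5, 39.7 and 39.9. Zfp384 stood at 30.4 CPM in IUO 4, against 44.8, 46.0 and 46.2. Zfp367 was at 9.56 CPM in PNO 3, against 10.02, 10.02 and 10.06. Zfp394 was at 8.69 CPM in PNO 2, the PNO library without a raised bulb score, against 11.4, 11.1 and 11.5.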

How the results depend on the processing

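The 3 medians over members and the 24 gene comparisons chosen for small p kept their sign under each of the 25 alternatives run on them. Because they were chosen in these same data, a kept sign is no independent test. It also says nothing of size: Zfp142 in PNO against saline went from 0.37 to 0.003 (SE 0.145) with the scores as covariates. Clusters, lists, families and the other named genes were recomputed, as a choice made after seeing the data, only with the regional marker scores or without the libraries with a raised score, and some of them changed sign there. Several such cases, but not all, stand beside their values. In PNO against saline, DESeq2 called 3 members where edgeR called 0, with log2 fold changes of 1.24 for Zfp141, 0.49 for Zfp646 and 0.62 for Zfp467. The 27 members at an unadjusted p under 0.05 became 5 with both regional marker scores as covariates and 14 without the libraries with a raised striatal score. Leaving out each library in turn gave 16 to 36. Without the libraries with a raised bulb score, PNO 2 alone stood for PNO. The median log2 fold change was 0.108 without the libraries with a raised bulb score, 0.112 without those with a raised striatal score, 0.061 with the covariates and 0.056 with the length trend removed, and 0.082 to 0.128 without one library. In IUO against saline, the 15 members became 8 of the 135 left by a filter at 2 FPKM, 8 with only the 2 groups compared and 7 without the libraries with a raised bulb score, with a leave-one-out range of 8 to 20. With the covariates the count was 13 and the median 0.029, and without one library the median was 0.045 to 0.074. In IUO against PNO, the 16 members became 4 with the covariates, with a leave-one-out range of 9 to 21, and the median ranged from -0.054 to -0.024. Members called stayed at 0 when one library was left out, in each of the 3 comparisons. The cause of these moves was not tested.

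With the replicate number as a block, edgeR called 0 members in each comparison, and medians were 0.103, 0.070 and -0.037. Counts of members at an unadjusted p under 0.05 were 26, 10 and 15, and the share of all genes in that setting is not given here. The labels give no meaning to the number. The 12 same-numbered pairs across groups had correlations of deviations from 0.015 to 0.411, all positive and 4 of them over 0.1. The other pairs across groups ran from -0.302 to 0.203. Of the 12 libraries, 3 correlated best with their own number. Whether same-numbered samples share more than a number was not tested, and the main model holds no term for it.

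With 4 animals from 2 dams per group, differences as small as most of those between members lie below what the test recovered on simulated data. Marker scores raised in 3 of 4 PNO libraries and in no saline library cannot be fully told apart from the group.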
